A study of Homo sapiens with 2 samples.

Results

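Iron uptake, storage and sensing were described through 10 genes in RNA of cells labelled Jurkat, a line from a human T cell leukaemia: TFRC, FTH1, FTL, IREB2, ACO1, NCOA4, SLC11A2, SLC40A1, FBXL5 and STEAP3. The members were all probes that the platform annotation assigns to these symbols, which gave 14 of the 47322 probes of the array and 8 of its 20046 named genes. No probe carried the symbol FTH1 or IREB2 in that annotation, so the ferritin heavy chain and iron regulatory protein 2 were not analysed here. One sample had been treated with Me6TREN for 24 hours and the other, the control, with phosphate-buffered saline for the same 24 hours, both in RPMI medium with fetal bovine serum. Me6TREN is a small branched amine ligand that binds metal ions, copper among them, and its dose is not given in the sources used here. Each sample was hybridised to 1 Illumina HT12 array, so there is no replicate: no value carries an error, and the differences compare 2 hybridisations rather than 2 conditions. No p-value can be given.

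Cells take up iron mainly as transferrin, which the transferrin receptor (TFRC) carries into endosomes. There the ferrireductase STEAP3 reduces the iron and the transporter SLC11A2 moves it into the cytosol. Iron that is not used is stored in ferritin, a shell of heavy (FTH1) and light (FTL) chains that the cargo receptor NCOA4 delivers to lysosomes for release, and it leaves the cell through ferroportin (SLC40A1). In iron-poor cells the iron regulatory proteins, encoded by ACO1 and IREB2, bind stem-loops called iron-responsive elements, which protects the TFRC transcript from decay and blocks translation of the ferritin transcripts. The F-box protein FBXL5 senses iron and oxygen and marks iron regulatory protein 2 for degradation.

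An iron-responsive element of FTL lies at the very start of its transcript. In the RefSeq sequences of build GRCh38.p14 it was found at chr19:48965338-48965357 on the plus strand, bases 30 to 49 of the transcript. It is printed to show the element that iron regulatory proteins bind in a ferritin transcript. The capitals mark the loop of 6 bases:
FTL: ttgcttcaaCAGTGTttgga

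The search was for CAGTGN preceded by a C and 5 further bases, on the transcript strand of the first 50 transcribed bases. They were present in 1.67% of 35116 such windows, and in 8 windows (0.0228%) the 5 bases on each side of the loop could also pair. Of 14 windows of the member genes, FTL's alone held them, and 9 of the 10 members had a window. The member without a window was FTH1, so the ferritin heavy chain was not searched. A window that lacks these letters says nothing of elements farther down a transcript, where those of TFRC lie. The 250 bases before the start of TFRC, chr3:196082091-196082340 on the minus strand, are shown because TFRC had the largest difference among the members. The capitals mark ACGTG, the core letters that hypoxia-inducible factors bind, 88 to 84 bases before the start:
TFRC: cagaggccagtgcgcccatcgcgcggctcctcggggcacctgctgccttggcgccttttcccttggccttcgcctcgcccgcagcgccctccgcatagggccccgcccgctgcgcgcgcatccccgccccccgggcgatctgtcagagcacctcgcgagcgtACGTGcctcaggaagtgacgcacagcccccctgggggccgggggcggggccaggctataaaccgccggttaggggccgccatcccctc

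On both strands, ACGTG was present in 18.5% of all 35116 promoters and in those of TFRC, FTL and FBXL5 among the members. That of FBXL5 held it within CACGTG, which 6.34% of promoters hold. A match of letters is a description of the sequence and not evidence of binding.

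Among probes detected on both arrays, deposited signals were generally lower on the Me6TREN array, whereas the median over all 47322 probes was not. That median was 283.1 with Me6TREN and 272.1 in the control. Over the 12809 probes detected on both arrays, the median log2 ratio of these signals, Me6TREN over control, was -0.34. The Me6TREN array detected 13656 probes (28.9%), with a lowest detected signal of 350.5, and the control array 15363 (32.5%), with a lowest detected signal of 333.4. Detection meant a p-value under 0.01, that is, a signal brighter than nearly all negative control beads. The T cell label was poorly borne out by the markers. Neither array detected 6 of 14 T cell markers (CD3E, LCK, CD5, CD7, BCL11B and TRAT1), and 3 (CD247, CD28 and SIT1) were detected on both. The other 5 were detected on 1 array. CD3D, with signals of 250.3 with Me6TREN and 587.4 in the control, was at least 2.26-fold lower, and CD3G and LAT were likewise detected in the control alone. CD2 was detected with Me6TREN alone, and so was ZAP70, which had signals of 374.3 with Me6TREN and 321.4 in the control and was at least 1.68-fold higher. Both arrays detected 7 of 9 B cell markers with a probe, and neither detected BLNK or PAX5. Among the 7, CD79A had signals of 33454.8 with Me6TREN and 32313.3 in the control. CD79B had 42799.6 with Me6TREN and 45068.6 in the control. The identity of the cells was not tested. Of 8 myeloid markers, 4 were detected on at least 1 array. CD68 had signals of 1323.8 with Me6TREN and 1280.6 in the control (log2 ratio 0.73, and 0.08 with medians centred over all probes). CD14 had 370.0 with Me6TREN and 312.5 in the control (detected with Me6TREN alone, at least 1.61-fold higher). LYZ was also detected with Me6TREN alone and S100A8 in the control alone. NKG7 of natural killer cells had signals of 1226.7 with Me6TREN and 1712.9 in the control (log2 ratio 0.10, and -0.55 with medians centred over all probes), the epithelial marker KRT18 was detected with Me6TREN alone and no fibroblast marker was detected. The part of these marker differences in the ratios of the iron genes was not tested. ALAS2 and SLC4A1 of the erythroid lineage, which uses much iron, were not detected. HBB, the 1 erythroid marker of 6 that both arrays detected, had signals of 576.8 with Me6TREN and 831.4 in the control.

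Both arrays detected 6 of the 8 iron genes with a probe: TFRC, FTL, NCOA4, ACO1, SLC11A2 and FBXL5. After background correction and quantile normalization, TFRC was at least 1.5-fold lower with Me6TREN and the other 5 lay within 1.5-fold of the control. Among all 9410 genes detected on at least 1 array, 21.9% were at least 1.5-fold lower and 16.5% at least 1.5-fold higher, so 1 of 6 lower and 0 of 6 higher is close to the background for lower genes. The median log2 ratio of the 6 genes was -0.19, against -0.12 over all measured genes. The value of -0.12 includes genes detected on 1 array alone, at their measured difference. Over genes that both arrays detected, as the 6 were, the median was -0.04. These shares depend on scaling: 43.0% of the 1.5-fold calls over all genes were higher with quantile normalization, 57.8% with medians centred over detected probes, 10.4% with medians centred over all probes and 13.8% with the series matrix values.

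TFRC, the receptor that brings transferrin iron into the cell, gave the clear difference in this set. Its single probe had a deposited signal of 4633.0 on the Me6TREN array and 15336.2 on the control array, 13.2 and 46.0 times the lowest detected signals. The control array was the higher by 3.31-fold in these signals, which still contain background. On the normalized log2 scale TFRC stood at 12.33 with Me6TREN and 13.79 in the control, a log2 ratio of -1.46, or 2.76-fold lower with Me6TREN. Of all 9410 measured genes, 647 (6.88%) had a lower ratio. Measured genes were split into 10 equal bands of mean signal. In the brightest (robust standard deviation 0.38 around a median of -0.06), 5 of 941 genes had a lower ratio than TFRC. This band also holds FTL and other genes near the top of the scale, where ratios varied little, while TFRC lay well below that end. Under 10 other ways of processing, the log2 ratio of TFRC lay between -1.74 and -1.06, which is 3.34-fold to 2.08-fold lower. Those that changed the detection p-value, detection filter or probe averaging could not move that ratio, as its single probe was detected on both arrays. Less TFRC transcript per cell and a smaller share of cells that express it cannot be told apart in RNA of whole cultures.

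**Figure D1:**
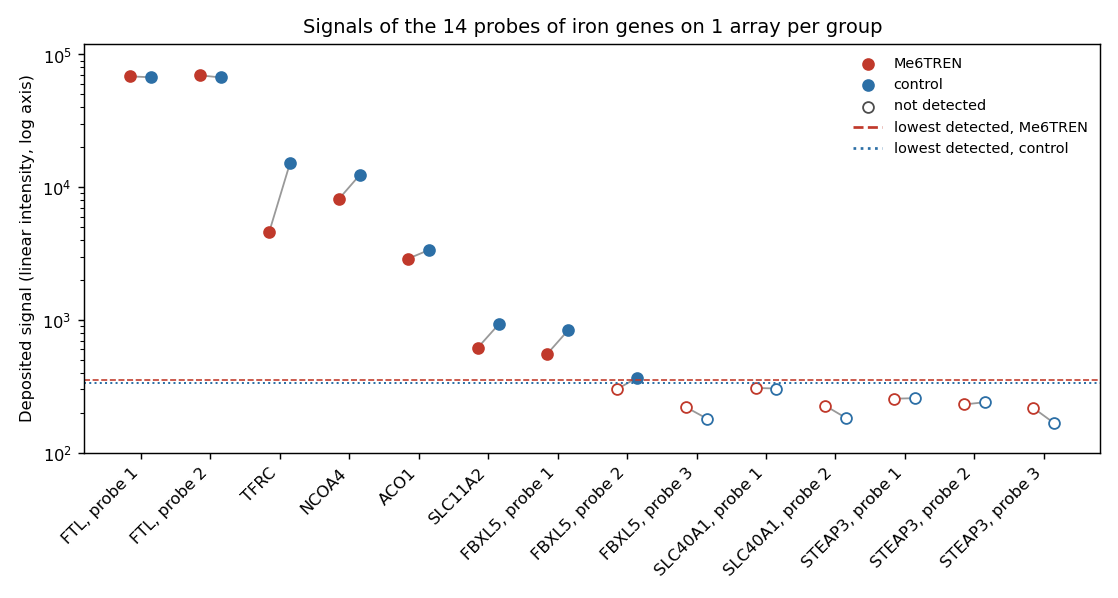
Deposited signals (linear intensity, log axis) of the 14 probes of iron genes, with the Me6TREN array in red left of the control array in blue; each point is 1 array, open points were not detected and the lines mark the lowest detected signals (350.5 with Me6TREN, 333.4 in the control). TFRC shows the widest gap among detected probes, 4633.0 with Me6TREN against 15336.2 in the control, both FTL probes lie near the top of the scale, and all SLC40A1 and STEAP3 probes lie below the limits.

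SLC11A2, the transporter that moves iron across the endosomal membrane, had a signal of 617.0 with Me6TREN and 924.1 in the control. Its log2 ratio was -0.16 after normalization, inside the robust standard deviation of 0.82 for genes of similar signal. STEAP3, the endosomal ferrireductase, was not detected by any of its 3 probes. Their signals ran between 217.0 and 255.1 with Me6TREN and between 166.6 and 257.5 in the control, so no ratio is given. The uptake step was therefore measured here for the receptor and the transporter and not for the reductase.

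FTL, the ferritin light chain, lay close to the upper end of the scale in both samples. One probe had signals of 69647.7 with Me6TREN and 67171.4 in the control, and the other 68418.3 with Me6TREN and 67324.3 in the control, where the highest signals of any probe were 74593.7 and 73762.5. The log2 ratios of these probes were 0.01 and -0.03. Ratios varied little at this end of the scale: 238 probes exceeded 60000 on both arrays, and the central 90% of their signal ratios lay between 0.963 and 1.12. A difference in FTL transcript could be understated there, and the ratio of its brighter probe was 0.77 on the log2 scale with medians centred over detected probes. Ferritin genes have many near-identical processed copies in the human genome, so the assignment of signal to FTL alone is uncertain.

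NCOA4, which carries ferritin to lysosomes, had a signal of 8139.7 with Me6TREN and 12343.2 in the control. Its log2 ratio was -0.32, with 245 of the 941 genes in its band of signal lower still, and it turned to 0.10 with medians centred over detected probes. SLC40A1, the iron exporter ferroportin, was not detected. Its brighter probe had signals of 307.4 with Me6TREN (detection p-value 0.0857) and 304.4 in the control (detection p-value 0.0351), and its other probe 226.3 with Me6TREN and 182.9 in the control. At this signal no difference in the exporter was detectable.

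ACO1 encodes iron regulatory protein 1, which is an aconitase when it holds an iron-sulfur cluster and binds RNA when it does not. Its signals were 2896.8 with Me6TREN and 3370.3 in the control. The log2 ratio was 0.34 after quantile normalization, the highest among the 6 genes. It turned to -0.20 with medians centred over all probes and to -0.10 with the series matrix values, so no direction can be given for ACO1.

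FBXL5, the sensor subunit of the ligase that degrades iron regulatory protein 2, had 3 probes. The brightest had a signal of 554.5 with Me6TREN and 834.5 in the control, and a log2 ratio of -0.22 where genes of similar signal had a robust standard deviation of 0.90. A second probe was detected on the control array alone, with signals of 299.9 with Me6TREN and 368.1 in the control, too close to the limit of detection for a bound above 1-fold. The third was not detected on either array, with 220.0 with Me6TREN and 180.5 in the control. With medians centred over all probes, and with the series matrix values, FBXL5 (log2 ratios of -0.92 and -0.85) and SLC11A2 (-0.85 and -0.77) joined TFRC past 1.5-fold lower, while 46.2% and 42.3% of all measured genes did so too.

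**Figure D2:**
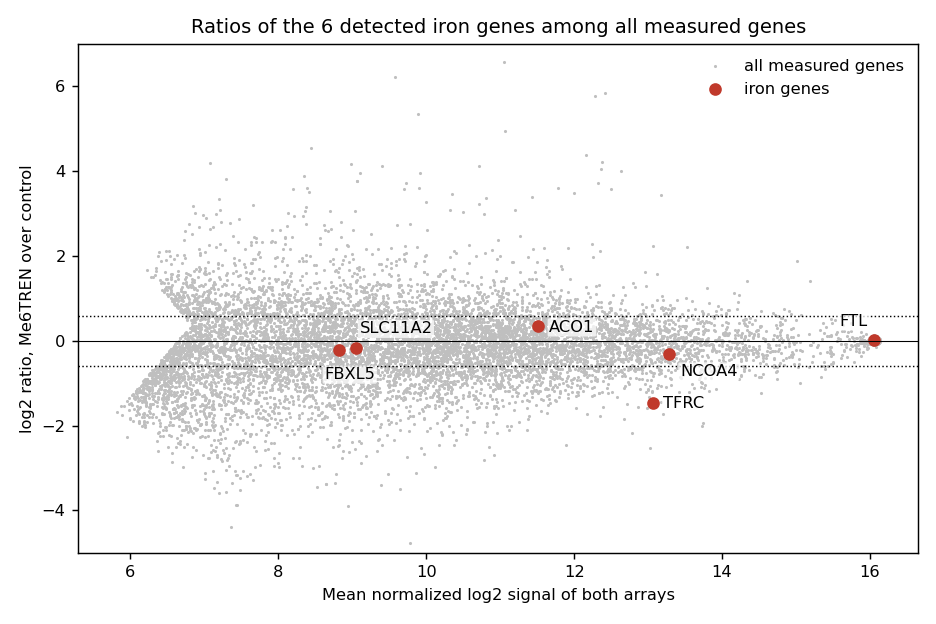
Log2 ratio of Me6TREN over control against the mean normalized log2 signal of both arrays, with each grey point 1 of the 9410 measured genes, red points the 6 detected iron genes and dotted lines at 1.5-fold. TFRC lies at -1.46 below most genes of its signal, whereas the other 5 lie between -0.32 and 0.34 inside the dotted lines.

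**Figure D3:**
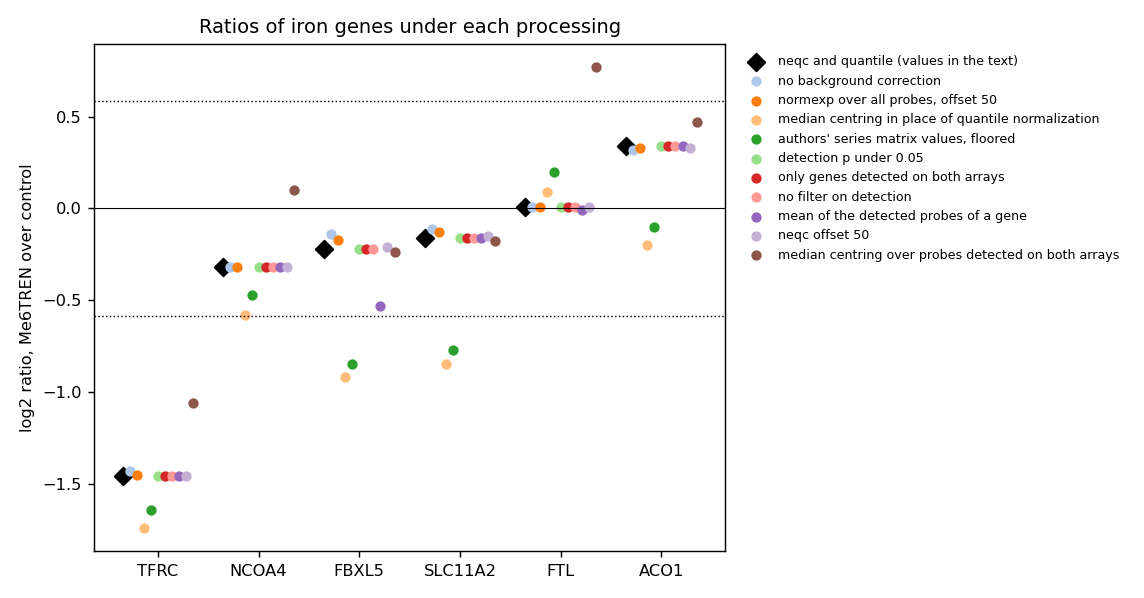
Log2 ratio of Me6TREN over control of each detected iron gene under the processing used in the text (black diamonds) and 10 alternatives (coloured points), with dotted lines at 1.5-fold. TFRC stays between -1.74 and -1.06, past 1.5-fold in each, while NCOA4, FTL and ACO1 have values on both sides of 0. Alternatives in detection or probe averaging could not move TFRC, whose single probe was detected on both arrays.

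The transcripts known to carry iron-responsive elements were mostly out of reach. Of 6 with an element in the 5′ part of the transcript, 4 had a probe and FTL alone was detected. Of 4 with elements in the 3′ part, TFRC and SLC11A2 were detected on both arrays, with log2 ratios of -1.46 and -0.16. CDC14A, a phosphatase of the cell cycle named here after its values were seen, was detected in the control alone and had a bound of -0.44, while CDC42BPA was not detected. With medians centred over all probes and with the series matrix values, TFRC, SLC11A2 and CDC14A all passed 1.5-fold lower. So did 46.2% and 42.3% of all measured genes. Where the probes lie relative to those elements was not analysed here.

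Other genes of iron handling were taken from lists, and 72 of 76 that are not members had a probe. Of these, 43 were measured, of which 15 were at least 1.5-fold lower, 4 at least 1.5-fold higher and 24 neither, where 21.9% of all measured genes were lower and 16.5% higher. Their median log2 ratio was -0.31, against -0.12 over all measured genes. With medians centred over detected probes, 11 were lower and 11 higher, where 18.2% of all measured genes were lower and 24.9% higher, and the median was -0.04, against 0.07 over all measured genes. With medians centred over all probes 23 were lower and 1 higher (46.2% and 5.36% of all measured genes), and with the series matrix values 22 were lower and 2 higher (42.3% and 6.78% of all measured genes). Of the 15 lower after quantile normalization, 7 came from 1 list, that of haem breakdown and of BACH1 and NRF2, with 10 measured genes. The counts of the single lists below are small and are to be read against the shares of all measured genes given here.

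Of 20 genes of iron import and endosomal release, 8 were measured, with 3 lower, none higher and a median log2 ratio of -0.30. There were 6 lower and none higher with medians centred over all probes, 6 lower and 1 higher with the series matrix values, and 3 lower and 2 higher with medians centred over detected probes. Besides TFRC the lower genes were EXOC6, an exocyst subunit known in mice for recycling of the transferrin receptor, and SLC39A14, a carrier of iron not bound to transferrin. EXOC6 had signals of 470.3 with Me6TREN and 1161.8 in the control (log2 ratio -1.32, and -0.48 by another probe). SLC39A14 had signals of 563.3 with Me6TREN and 1161.9 in the control (log2 ratio -0.81). Its relative SLC39A8 had a log2 ratio of -0.44. SNX3, a sorting nexin that returns the transferrin receptor from endosomes, had a signal of 26386.8 with Me6TREN and 18672.6 in the control (log2 ratio 0.53, and 1.22 with medians centred over detected probes). The plasma ligand transferrin (TF) and the second receptor TFR2 were not detected.

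Of 13 genes of iron storage, delivery and ferritinophagy with a probe, 9 were measured, with 2 lower and 1 higher. The lower genes were GLRX3, a glutaredoxin of cytosolic iron delivery (3860.4 with Me6TREN, 8392.3 in the control, log2 ratio -0.75), and PCBP1, the chaperone that loads iron into ferritin (16101.1 with Me6TREN, 26800.7 in the control, log2 ratio -0.68). The ratio of PCBP1 shrank to -0.03 with medians centred over detected probes. WDR45, an autophagy protein whose loss causes iron to build up in the brain, had a log2 ratio of 1.13 by its brightest probe, but its other detected probes gave -0.01 each. TAX1BP1, an autophagy receptor that acts with NCOA4, had a log2 ratio of 0.45. The median of the list was 0.01, and 0.60 with medians centred over detected probes, where 5 of the 9 were higher and none lower, against 24.9% higher and 18.2% lower of all measured genes.

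All 11 genes of iron sensing with a probe were measured, with 2 lower, none higher and a median log2 ratio of 0.11 (4 lower with medians centred over all probes or with the series matrix values, 2 lower and 2 higher with medians centred over detected probes). CIAO1, which helps to insert iron-sulfur clusters into cytosolic proteins, had signals of 2086.5 with Me6TREN and 5532.5 in the control. Its log2 ratio was -0.99 by this probe and -0.14 by another. RBCK1, a ubiquitin ligase that can mark oxidised iron regulatory protein 2, had signals of 1240.1 with Me6TREN and 3114.2 in the control (log2 ratio -0.88, and -0.70 by its other probe). CUL1, the scaffold of the FBXL5 ligase, had a log2 ratio of -0.56, and CIAO2B, a partner of CIAO1, one of 0.47. The median of this list turned to -0.33 with medians centred over all probes and to -0.22 with the series matrix values, and was 0.35 with medians centred over detected probes.

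Iron export and hepcidin control was largely at background, as neither array detected 9 of its 13 genes with a probe. Both arrays detected NEO1, a co-receptor for the hepcidin regulator hemojuvelin, and SMAD4, which acts in the same signal, with log2 ratios of 0.41 and 0.25 that turned to -0.23 and -0.31 with medians centred over all probes. FLVCR1, a haem exporter, and NDFIP1, an adaptor of ubiquitin ligases, both named after their values were seen, were detected in the control alone. FLVCR1 had signals of 275.6 with Me6TREN and 349.4 in the control, too near the limit for a bound above 1-fold, and NDFIP1 had 324.7 with Me6TREN and 422.3 in the control, with a bound of -0.35. After quantile normalization no gene of this list passed 1.5-fold, whereas NDFIP1 was lower by that measure with medians centred over all probes and with the series matrix values. Hepcidin itself (HAMP) had a signal of 327.3 with Me6TREN and 276.3 in the control, both below the limits.

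Of 6 measured genes of mitochondrial iron, 2 were lower and 1 higher, whereas 4 were lower and none higher with medians centred over all probes or with the series matrix values. ABCB10, an inner membrane transporter that stabilises mitoferrin 1 in red cell precursors of mice, had signals of 623.5 with Me6TREN and 1814.7 in the control (log2 ratio -1.34). The mitochondrial iron importers went opposite ways after quantile normalization. SLC25A28 had signals of 2035.2 with Me6TREN and 4758.2 in the control (log2 ratio -0.78). SLC25A37 had signals of 1223.8 with Me6TREN and 1226.1 in the control (log2 ratio 0.67), a ratio that was 0.01 with medians centred over all probes. SFXN1, a mitochondrial serine carrier linked to iron-laden mitochondria in mice, had a log2 ratio of -0.38.

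The list of haem breakdown and of BACH1 and NRF2, factors that govern ferritin transcription, held the most lower genes. Of 10 measured, 7 were at least 1.5-fold lower and 2 higher, where 21.9% of all measured genes were lower and 16.5% higher. The median log2 ratio was -0.94, and it lay between -1.30 and -0.62 under the other scalings. There were 5 lower with medians centred over detected probes (18.2% of all measured genes), and 7 with those centred over all probes and with the series matrix values (46.2% and 42.3%). TXNRD1, the cytosolic thioredoxin reductase, had signals of 2472.7 with Me6TREN and 10900.1 in the control (log2 ratio -1.78, and -2.27 by its other probe). SRXN1, which repairs peroxiredoxins, had signals of 719.3 with Me6TREN and 2220.2 in the control (log2 ratio -1.36). KEAP1, the inhibitor of NRF2, had a log2 ratio of -1.21, and -1.12 by another probe. The other 4 lower genes, named after their values were seen, were NQO1, GCLM, SLC7A11 and NFE2L2. NQO1 had signals of 8899.3 with Me6TREN and 19920.7 in the control, and the log2 ratios of GCLM, SLC7A11 and NFE2L2 were -0.94, -0.94 and -0.65. SLC7A11 lay near the limit of detection with Me6TREN, at a signal of 371.6 against 613.6 in the control. With medians centred over detected probes, NQO1 (-0.47) and NFE2L2 (-0.56) no longer passed 1.5-fold. The higher genes were MAFG and BLVRB. MAFG, a partner of both factors and also named after its value was seen, had a log2 ratio of 0.90. It fell to 0.21 with medians centred over all probes and to 0.32 with the series matrix values, inside 1.5-fold. BLVRB, a reductase of biliverdin, had signals of 934.9 with Me6TREN and 609.1 in the control (log2 ratio 1.57). Its ratio was 0.89 with medians centred over all probes and 1.03 with the series matrix values. BACH1 itself and the haem oxygenases HMOX1 and HMOX2 were not detected on either array. FTL, a target of the same factors, stood at 0.01 at the top of the scale.

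**Figure D4:**
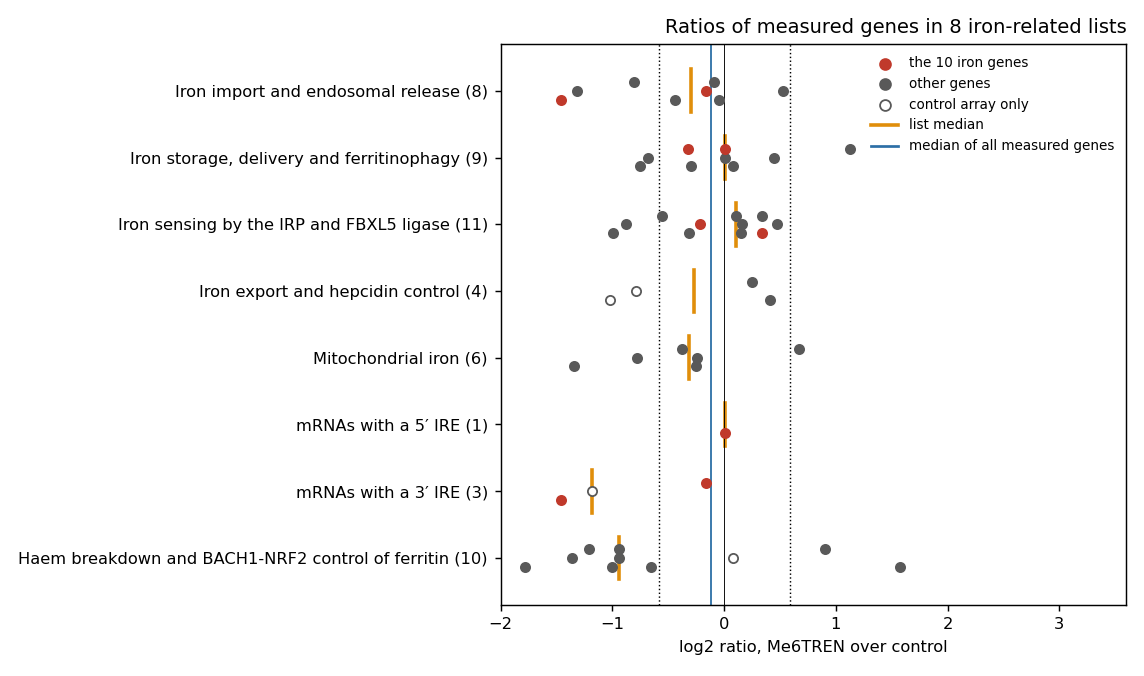
Log2 ratio of Me6TREN over control of each measured gene in 8 lists of iron handling (number measured in brackets), with the 10 iron genes in red, other genes in grey, open points for genes detected on the control array alone (drawn at the measured difference, which was not counted as a call), orange bars for list medians, a blue line for the median of all measured genes and dotted lines at 1.5-fold. TFRC lies at the low end of the import list at -1.46, and the list of haem breakdown and BACH1-NRF2 has its median at -0.94.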

How the data were processed

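The authors deposited a table without normalization across the arrays, holding the mean signal of each probe as a linear intensity and, per the file headers, a detection p-value for each array. A series matrix of processed intensities was also deposited, with software and normalization not given in the sources used here; its column medians were 28.8 with Me6TREN and 30.9 in the control. Deposited detection p-values moved in steps of 1 in 770. Signals were corrected and normalized with neqc of limma 3.58.1 in R 4.3.3 (offset 16, quantile normalization, log2). Genes were named through the platform annotation, which gave 1 symbol for 30113 probes, several for 8 and none for the rest. Of these, 30074 matched RefSeq by Entrez ID. A gene was represented by its brightest probe detected on at least 1 array. A gene detected on 1 array has a bound against the lowest detected signal. Counts use this bound, while medians and ranks use its measured difference. With 1 array per group there was no test, and genes were counted at 1.5-fold. The steps were tested on data simulated from the control array, with known and balanced folds in a small set of probes. No shift between the arrays was simulated, so that test does not bear on the choice of scaling. Named genes were the 10 members, and up to 4 other genes of each list with the largest ratios among those detected on both arrays; undetected genes, and those said to be named after their values were seen, fall outside this rule. The members, lists and thresholds were chosen with earlier results of these data known. Alternatives were no background correction, normexp with an offset of 50, median centring over all probes, the series matrix values floored at 99.9, a detection p-value of 0.05, a filter to genes that both arrays detected, no detection filter, averaging a gene's detected probes and a neqc offset of 50. Median centring over detected probes was added after the data were seen. The number of arrays limits the precision.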

Additional observations from a re-analysis of the deposited data

How the results depend on the processing

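TFRC was at least 1.5-fold lower under all 10 alternatives, and it was the 1 member past 1.5-fold lower under 8 of them. Those in detection p-value, detection filter and probe averaging could not move its ratio, as its single probe was detected on both arrays. With medians centred over all probes, 3 members were lower and the median log2 ratio of the members was -0.72, while that of all measured genes was -0.61. With the series matrix values, 3 were lower and the median was -0.62, against -0.43 over all genes. With medians centred over detected probes, chosen after seeing the data, 1 member (FTL) was higher, 1 was lower and the median was -0.04, against 0.07 over all genes. The other alternatives left 0 higher and 1 lower. Median centring takes a constant off each array, so all members shift alike between its forms. FTL had a log2 ratio of 0.09 with medians centred over all probes and 0.77 with medians centred over detected probes. FBXL5 had -0.92 and -0.24. From quantile normalization to medians centred over all probes the members did not shift together. There FTL went from 0.01 to 0.09 and FBXL5 from -0.22 to -0.92. Quantile normalization adjusts each probe by its rank of signal on the array, so bright and dim genes can shift by different amounts. Why the arrays differed in their spread of signals was not tested. No paired analysis was possible because each group had 1 array. Signals near the lowest detected value limit SLC40A1, STEAP3 and FBXL5, and the signal of FTL lies near the upper end of the scale, where its precision was not tested.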

Other observations

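Relatives of the ferritin genes on the array were mostly dark. The probe of FTH1P3, a processed pseudogene of the ferritin heavy chain, had signals of 3400.2 with Me6TREN and 3520.6 in the control and a log2 ratio of 0.49, which was -0.02 with medians centred over all probes, 0.66 with medians centred over detected probes and 0.09 with the series matrix values. Whether this probe takes up transcripts of FTH1 was not tested, since its sequence is not given in the sources used here. The probes of FTLP10, a copy of the light chain, of FTHL17, a heavy chain relative of the testis, and of mitochondrial ferritin (FTMT) were not detected on either array, with signals between 249.4 and 265.2 with Me6TREN and between 221.0 and 279.7 in the control.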
